A study of Mus musculus with 2 samples.

Results

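Receptors for hormones and peptides of the gut were examined in ganglia of the mouse, namely the celiac and the superior mesenteric, which lie in front of the aorta and send sympathetic axons to the abdominal organs. They are the 9 genes Sctr, Cckar, Cckbr, Sstr1, Sstr2, Glp1r, Glp2r, Gipr and Ghsr, chosen by name out of 32183 genes in the count tables. All cells come from 1 group, sequenced as 2 libraries (library 1 and library 2) of the 10x Genomics 3' v3.1 chemistry from dissociated ganglia. The series used 20 animals aged 7 to 8 weeks, male and female in equal number. The sources used here name no strain, genotype or treatment, and the comparisons are therefore between cell populations of the same suspensions. They do not say how the animals were divided over the libraries, so the spread between these libraries may be technical. The p-values rest at most on that spread. Where a fit took the spread from all genes, as given below, a gene's own spread had no weight.

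Gut hormones are released by cells of the intestinal lining and act through receptors that couple to G proteins. The secretin receptor (Sctr) and the receptors for glucagon-like peptides 1 and 2 (Glp1r, Glp2r) and for glucose-dependent insulinotropic polypeptide (Gipr) raise cyclic AMP through the stimulatory G protein. The cholecystokinin receptors (Cckar, Cckbr) act mainly through Gq and calcium, as does the ghrelin receptor (Ghsr), while the somatostatin receptors (Sstr1, Sstr2) lower cyclic AMP through inhibitory G proteins. In these ganglia the neurons are noradrenergic and slow gut motility and secretion, and glia wrap their cell bodies.

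The depth was 94521010 unique molecular identifiers (UMIs, counted RNA molecules) in library 1, with a median of 6483 per barcode, and 95235439 in library 2, with a median of 6498. The libraries shared 64 barcodes. After removal of doublets, 12030 cells of library 1 and 11655 of library 2 were sorted by marker genes into classes, all called by the type their markers resemble. Among them were 872 and 808 neurons, in which the defining markers Th and Dbh, enzymes of noradrenaline synthesis, had 2728 and 5300 UMIs in library 1 and 2309 and 4929 in library 2. The neurons held few UMIs, with medians of 2367.5 and 2434 per cell, and 632 and 613 of them lay under 5000 UMIs. A pair of neuron clusters with deep cells was named by Rxfp1 and Shox2, genes that mark neuron types in this series. In the UMIs used for clustering, Shox2 stood at 148 and 68.4 CPM in the Shox2-rich cluster and at 7.44 and 7.42 in the Rxfp1-rich cluster. The name does not set the Shox2-rich cluster apart from all neurons, since Shox2 was as high or higher in cluster 5 (184 and 74.7 CPM) and, in library 2, in clusters 0 (154 CPM) and 7 (76.1 CPM), which were given no type because their cells were shallow or genes of other cells stood among their leading genes. The Rxfp1-rich cluster held 66 and 64 cells (median 23488.5 and 20554.5 UMIs), and the Shox2-rich cluster held 62 and 59 (median 18126.5 and 21736). Of the other 7 neuron clusters, cluster 0 counted 3 markers of satellite glia and 0 of neurons within its top 100 genes against the other neurons. In that ranking the Rxfp1-rich cluster counted 1 neuron marker and the Shox2-rich cluster 0. Against all other cells, cluster 0 was led by Slc6a2, Syt4 and Ndrg4. Ranked against the other neurons, cluster 4 was led by satellite glial genes (Fabp7, Apoe) and cluster 6 by Lama2, Cdh19 and Dcn. Cluster 7 was led there by smooth muscle genes (Tagln, Acta2, Rgs5, Myh11). Cluster 8, with 11 cells of library 1 alone, was led by immune genes (Cd74, C1qa). Values over all neurons include these clusters, and their part in the results was not tested except where values without them are given.

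Levels are given as CPM, the UMIs of a gene per 1000000 UMIs of a population in a library, with exact 95% Poisson intervals, which cover counting error only. A receptor was called too low to judge in a population if it had under 10 UMIs there in either library. By that rule, Cckbr, Gipr and Ghsr were too low to judge in all 14 populations (12 classes and 2 neuron types). Sstr1 could be judged in 1 of the 14, Glp1r in 5, Sctr and Sstr2 in 9 each, Cckar in 11 and Glp2r in 13. The count for Glp1r depends on the minimum, with 10 populations at 5 UMIs and 3 at 20. Among the populations that could be judged, 4 receptors were highest in neurons or a neuron type (Sctr, Cckar, Sstr2, Glp1r), 1 was highest in glia (Glp2r) and 1 was judged in blood endothelial cells alone (Sstr1). CPM are not corrected for gene length, so levels are compared between populations and not between genes.

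**Figure D1:**
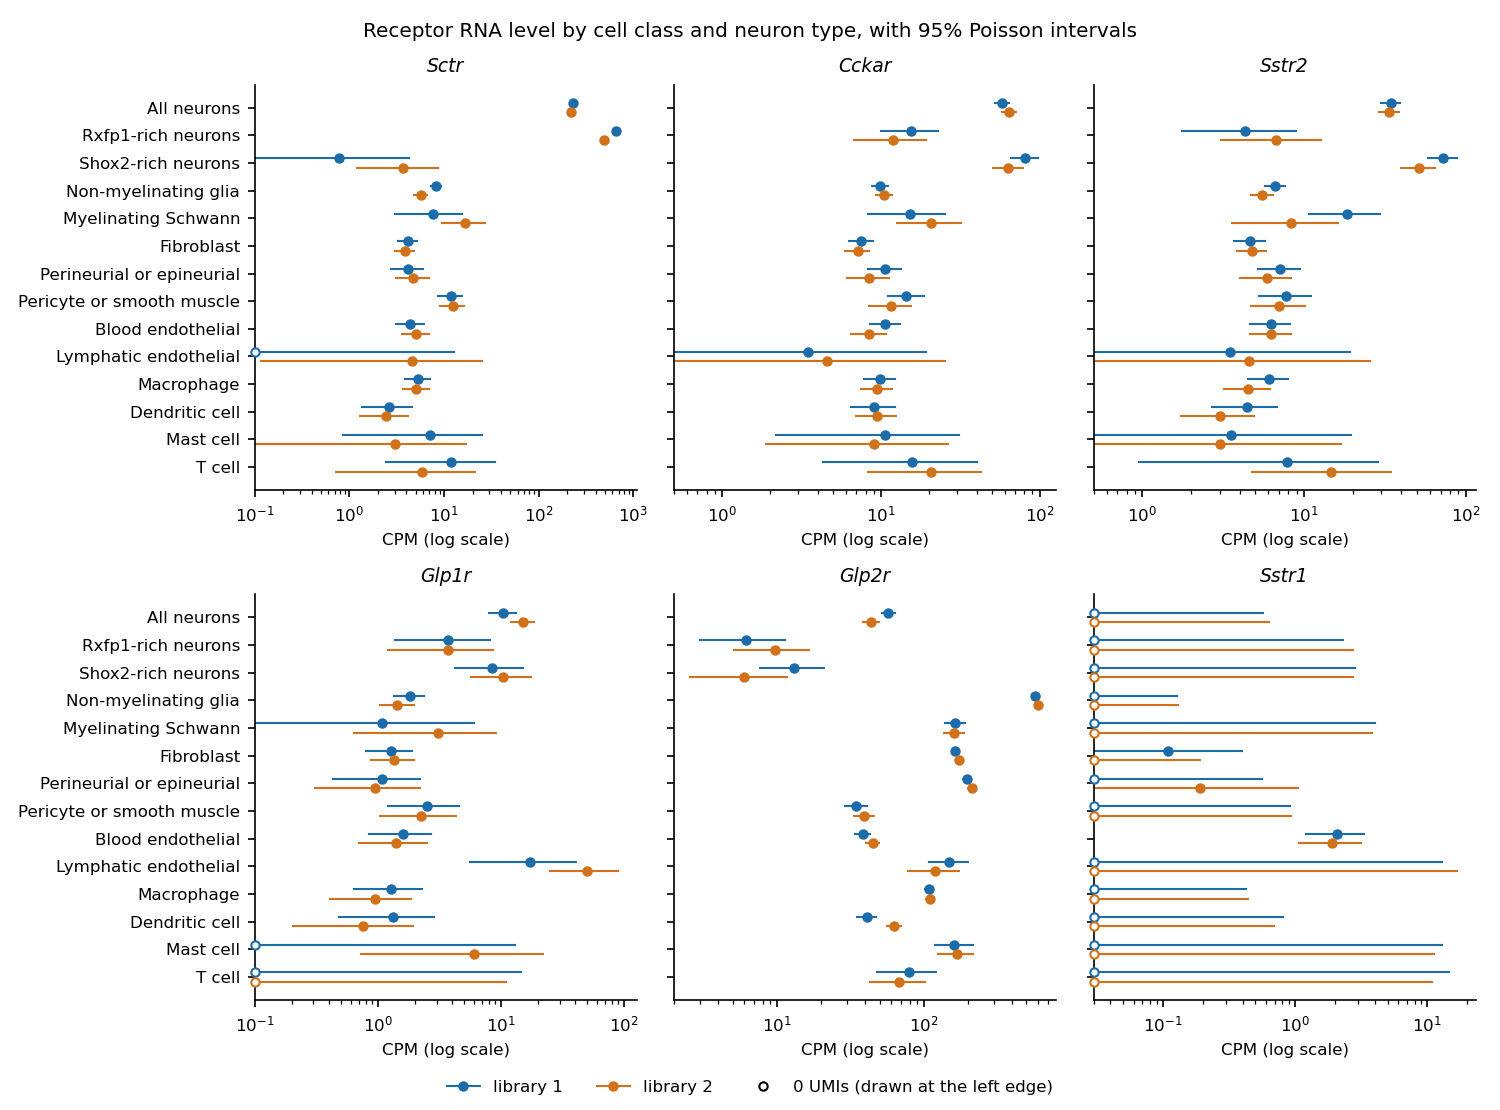
RNA level of 6 receptors in the neurons, the 2 neuron types and the non-neuronal classes, in CPM on log axes that differ between panels, with 1 point per library and lines for 95% Poisson intervals; open points are counts of 0. Sctr stands at 656 and 489 CPM in Rxfp1-rich neurons, and Glp2r is higher in non-myelinating glia (574 and 597 CPM) than in any other class drawn.

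The sequence before the start of the gene is shown for 2 receptors, Sstr2 as the one with a RefSeq promoter entry that differed between the neuron types, and Glp2r as the one that led in glia. RefSeq (GRCm38.p6) held entries for 5 of the 9 receptors. Each run below gives the 250 bases upstream of the start, 5′ to 3′ on the gene's strand. The Sstr2 window is chr11:113619077-113619326 on the plus strand, and the Glp2r window is chr11:67771154-67771403 on the minus strand. 3 motifs of factors that act downstream of cyclic AMP or in sympathetic neurons were searched on both strands: the cyclic AMP response element TGACGTCA, the E-box CANNTG and GATA. Capitals mark their matches.
Sstr2: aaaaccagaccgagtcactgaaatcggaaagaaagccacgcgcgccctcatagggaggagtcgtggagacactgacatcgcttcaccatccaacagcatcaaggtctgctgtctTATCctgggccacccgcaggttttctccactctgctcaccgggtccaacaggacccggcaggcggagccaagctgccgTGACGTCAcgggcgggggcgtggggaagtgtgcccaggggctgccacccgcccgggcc
Glp2r: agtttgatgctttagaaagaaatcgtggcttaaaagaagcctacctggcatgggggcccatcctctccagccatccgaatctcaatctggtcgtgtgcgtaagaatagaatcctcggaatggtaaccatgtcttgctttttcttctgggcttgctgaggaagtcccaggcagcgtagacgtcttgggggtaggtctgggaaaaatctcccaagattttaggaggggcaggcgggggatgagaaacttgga
The Sstr2 window held 1 cyclic AMP response element and 1 GATA match (read TATC on this strand), which did not overlap, and no E-box. No match to the 3 motifs was found in the Glp2r window. Of all 32851 promoters of this length, 1.55% held TGACGTCA, 66.2% an E-box and 53.6% GATA. A match describes the letters only.

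Sctr, the receptor of the hormone that drives bicarbonate secretion, had the largest difference between the neuron types of the 3 receptors tested there. In Rxfp1-rich neurons it stood at 656 CPM in library 1 (interval 617 to 696, 1057 UMIs) and 489 CPM in library 2 (452 to 527, 659 UMIs). In Shox2-rich neurons it had 1 and 5 UMIs, or 0.773 CPM (0.0196 to 4.31) and 3.72 CPM (1.21 to 8.68). By the rule above Sctr was too low to judge there, so the ratios that follow rest on counts under the minimum. The types did not overlap, and the ratio of both libraries together was 255, with a counting interval of 117 to 695. Library 1 alone gave 848 (152 to 33538) and library 2 alone 131 (56.0 to 406). In the UMIs set aside for testing, Sctr was 8.47 higher on the log2 scale in Rxfp1-rich neurons (SE 0.35, adjusted p = 1.7e-127, edgeR's quasi-likelihood test). This log2 value depends on the prior count, since the Shox2-rich counts were near 0. Sctr got through the low-count filter by its Rxfp1-rich UMIs alone, so the p-value is no separate support. Sctr (chr1:120006894-120063536, plus strand) is protein coding, as are the other 8 receptors.

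Within the Rxfp1-rich cluster, Sctr was uneven from cell to cell. Single cells held 0 to 52 UMIs in library 1 (median 10.5) and 0 to 71 in library 2 (median 3.0). No Sctr UMI was seen in 12 of 66 and 20 of 64 cells, while 33 and 18 cells had 10 or more. The 13 highest cells of library 1 and the 7 highest of library 2 held at least as many Sctr UMIs as all other cells of the cluster together. At an equal depth of 5000 UMIs per cell, 68.2% and 52.5% of Rxfp1-rich cells had a Sctr UMI, against 0% of 61 and 1.82% of 55 Shox2-rich cells. Blood endothelial cells, which served as a non-neuronal class for comparison, had 14 of 613 and 15 of 558 cells with a Sctr UMI at that depth. The Shox2-rich share was below theirs in both libraries. Whether the blood endothelial UMIs came from free RNA was not tested. That depth left out 0 and 5 Rxfp1-rich, 1 and 4 Shox2-rich, and 373 and 334 blood endothelial cells (median 6966.5 and 7079.5 UMIs). Without thinning, the shares were 81.8% and 68.8% of Rxfp1-rich and 1.61% and 6.78% of Shox2-rich cells.

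Sctr was not confined to the Rxfp1-rich cluster. It stood at 188 and 390 CPM in neuron cluster 6, at 156 and 224 in cluster 7 and at 142 and 114 in cluster 1. Clusters 6 and 7 carried the genes of other cells named above. The cluster of shallow cells, cluster 0 (median 1810 UMIs), had 34.4 and 44.3 CPM. The Rxfp1-rich level was above that of every other neuron cluster in both libraries. Over all neurons Sctr stood at 232 and 218 CPM, against 6.13 and 5.31 over the non-neuronal classes, and neurons held 74.8% and 74.4% of its UMIs.

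**Figure D2:**
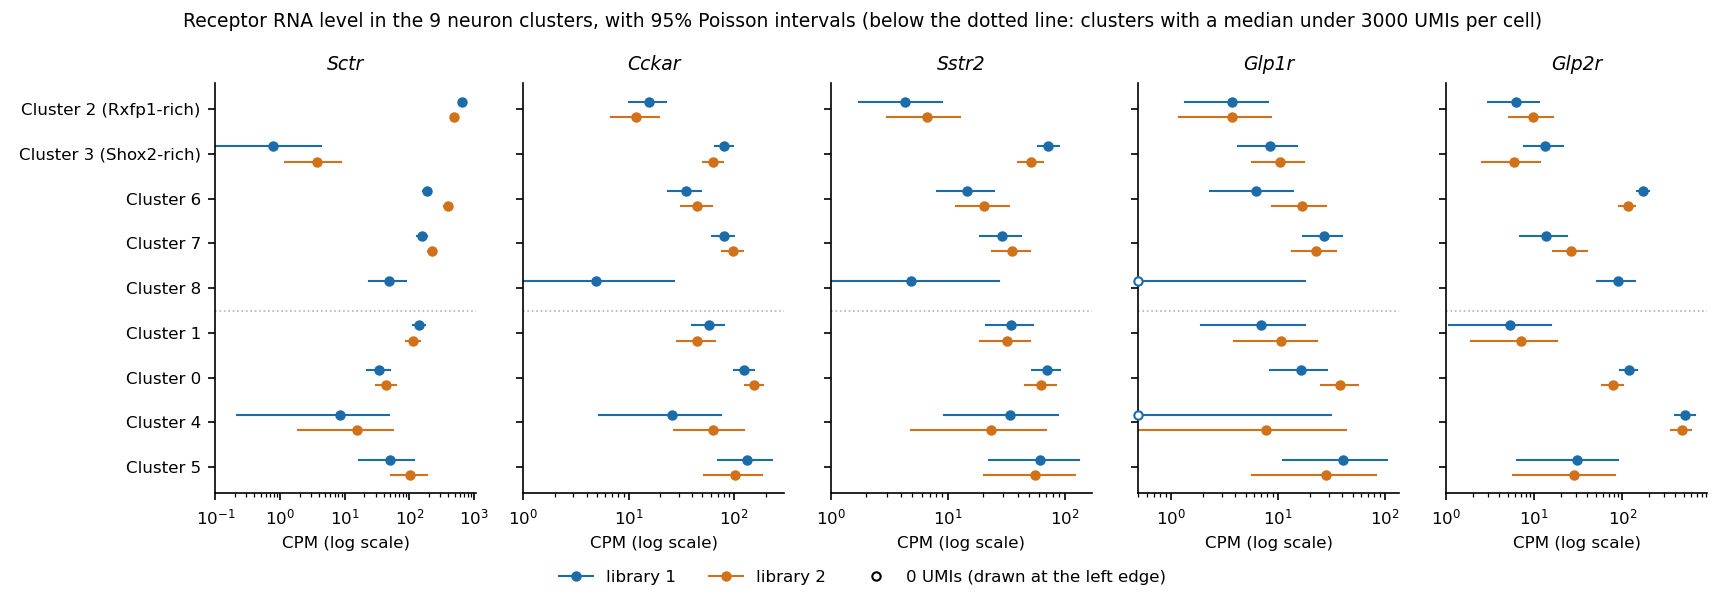
RNA level of 5 receptors in the 9 neuron clusters, in CPM on log axes that differ between panels, with 1 point per library and lines for 95% Poisson intervals; open points are counts of 0. Sctr is lowest in the Shox2-rich cluster (1 and 5 UMIs), and Cckar and Sstr2 are lower in the Rxfp1-rich than in the Shox2-rich cluster.

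Cckar and Sstr2 ran the other way from Sctr, with higher levels in Shox2-rich than in Rxfp1-rich neurons. Cckar, the receptor for sulphated cholecystokinin that serves gallbladder contraction and satiety, stood at 80.4 CPM (65.7 to 97.4) and 63.2 CPM (50.5 to 78.2) in Shox2-rich neurons. In Rxfp1-rich neurons it stood at 15.5 CPM (10.0 to 22.9) and 11.9 CPM (6.78 to 19.3). The types did not overlap, and the ratio over both libraries was 5.17 (3.67 to 7.44). Sstr2, a receptor through which somatostatin inhibits hormone and transmitter release, stood at 72.6 CPM (58.7 to 88.9) and 51.3 CPM (39.9 to 64.9) in Shox2-rich neurons. Its Rxfp1-rich level was 4.34 CPM (1.75 to 8.95) and 6.67 CPM (3.05 to 12.7), from 7 and 9 UMIs. These counts were too low to judge by the rule above, and the Sstr2 ratios rest on them. The types did not overlap, and the ratio was 11.4 (6.83 to 20.5), or 16.7 in library 1 and 7.69 in library 2 alone.

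Of the 9 receptors, 3 had enough UMIs to be tested between the neuron types, and all 3 passed the threshold, 1 higher and 2 lower in Rxfp1-rich neurons. Of the 8661 genes tested there, 10.9% passed, 6.17% higher and 4.7% lower. Each of the 3 got through the low-count filter by its UMIs in the type where it was high. In the tested UMIs, Sctr had 0 and 2 in Shox2-rich neurons, and Sstr2 had 4 and 4 and Cckar 10 and 7 in Rxfp1-rich neurons. A receptor equally low in both types could not enter, so neither the count of 3 passes nor the p-values of the 3 are separate support. Cckar was 2.54 lower on the log2 scale (-2.54, SE 0.36, adjusted p = 3.7e-11) and Sstr2 3.46 lower (-3.46, SE 0.43, adjusted p = 1.2e-14, edgeR's quasi-likelihood test). The fit took the spread of each gene from all genes, with infinite prior degrees of freedom, so a gene's own spread between the libraries had no weight in its p-value. Th and Dbh did not pass in the same comparison (-0.24 and -0.21). Glp1r was not tested between the types because of its low counts. It had 11 and 14 UMIs (8.50 and 10.4 CPM) in Shox2-rich neurons, while Rxfp1-rich neurons had 6 and 5 (3.72 and 3.71 CPM), and the ratio over both libraries was 2.55 (1.21 to 5.74). The Rxfp1-rich counts were under the minimum for judging. Glp2r was near its floor in both types, at 6.20 and 9.64 CPM in the Rxfp1-rich cluster and 13.1 and 5.95 CPM in the other, which overlapped.

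At 5000 UMIs per cell, 26.2% and 25.5% of Shox2-rich cells had a Cckar UMI, while Rxfp1-rich cells had 7.58% and 6.78%. Of blood endothelial cells, 27 of 613 and 22 of 558 had a Cckar UMI. For Sstr2 the shares were 31.1% and 29.1% of Shox2-rich cells, while Rxfp1-rich cells had 3.03% and 1.69%, with 17 and 13 blood endothelial cells. Without thinning, Cckar was seen in 66.1% and 61.0% and Sstr2 in 58.1% and 54.2% of Shox2-rich cells. Rxfp1-rich cells without thinning gave 28.8% and 14.1% for Cckar and 10.6% and 14.1% for Sstr2. Both receptors were found in the same cell in 30 of 62 and 24 of 59 Shox2-rich neurons, against 2 of 66 and 3 of 64 of the other type. Sctr and Cckar were found together in 16 of 66 and 4 of 64 Rxfp1-rich neurons. These pairings were counted on all UMIs and depend on depth.

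**Figure D3:**
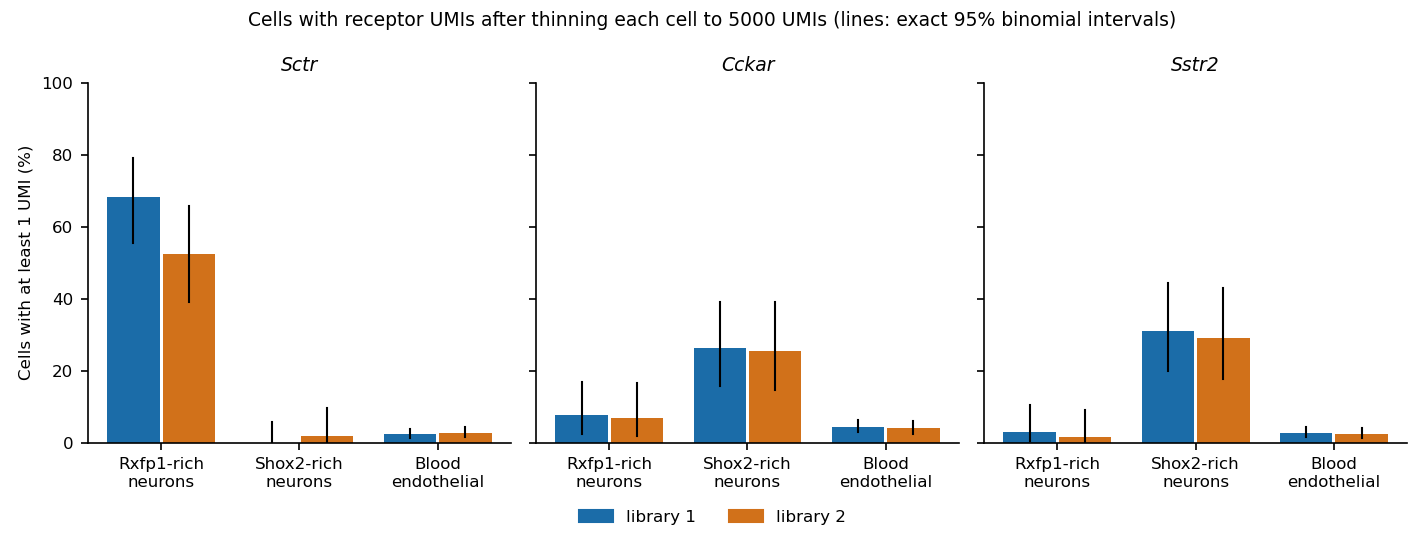
Share of cells with at least 1 UMI of Sctr, Cckar and Sstr2, in percent, after thinning each cell to 5000 UMIs, in the 2 neuron types and in blood endothelial cells, with 1 bar per library and lines for exact 95% binomial intervals. Sctr is seen in 68.2% and 52.5% of Rxfp1-rich cells, while Cckar and Sstr2 are seen in 25.5% to 31.1% of Shox2-rich cells.

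Outside those 2 clusters, levels of Cckar and Sstr2 varied among both shallow and deep neurons. Cckar stood at 125 and 156 CPM in neuron cluster 0 and at 133 and 103 CPM in cluster 5 (median 1968.5 UMIs), 2 clusters of shallow cells. Cluster 1, also shallow, had 57.8 and 44.4 CPM, and the deep clusters 7 and 6 had 79.8 and 97.5 CPM and 34.8 and 44.9 CPM. Sstr2 stood at 70.2 and 62.8 CPM in cluster 0, which had the satellite glial markers named above, and at 61.3 and 56.3 in cluster 5 (6 UMIs in each library). It was lower in cluster 1 (35.0 and 32.0 CPM), in cluster 7 (29.2 and 35.7) and in the shallow cluster 4 (34.3 and 23.5, from 4 and 3 UMIs). In neurons under 5000 UMIs Cckar was 89.5 and 99.2 CPM, against 49.2 and 52.3 in deeper neurons. Sctr went the other way with depth, at 78.0 and 73.3 CPM under 5000 UMIs and 274 and 265 above. The shallow clusters differed from the typed clusters in more than depth. In the UMIs used for clustering, Malat1 stood at 4430 and 3547 CPM in cluster 0 and at 6126 and 8275 in cluster 1. It stood at 6994 and 18220 CPM in cluster 4 and at 27438 and 30649 in cluster 5. The Rxfp1-rich cluster had 82681 and 80461 CPM of Malat1, and the Shox2-rich cluster 68834 and 76508. The part of depth, or of what sets Malat1 apart, in the receptor levels was not tested.

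Against all other named cells, Sctr, Cckar, Sstr2 and Glp1r were higher in neurons and Glp2r was lower. Cckar stood at 57.9 and 63.8 CPM in neurons and 9.70 and 9.37 outside them. Sstr2 stood at 34.5 and 33.6 CPM in neurons and 6.16 and 5.28 outside. Glp1r, the receptor of the incretin GLP-1, stood at 10.4 and 15.1 CPM in neurons (67 and 88 UMIs) and 1.60 and 1.49 outside. No Glp1r UMI was seen in 829 of 872 and 753 of 808 neurons. The 10 and 14 highest cells held at least as many Glp1r UMIs as all other neurons together. The Rxfp1-rich cluster held 6 and 5 of the UMIs and the Shox2-rich cluster 11 and 14, and the rest lay in clusters given no type. For none of these receptors did the libraries of the groups overlap. All 5 receptors tested passed, 4 higher and 1 lower, where 70.5% of 18132 genes passed, 32.5% higher and 38.0% lower. The share of receptors is to be read against that background.

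On the log2 scale and in the UMIs set aside for testing, the differences between neurons and other cells were 5.10 for Sctr (SE 0.09, adjusted p = 6.9e-20), 2.58 for Cckar (SE 0.12, adjusted p = 1.7e-13), 2.44 for Sstr2 (SE 0.16, adjusted p = 4.7e-11) and 2.76 for Glp1r (SE 0.32, adjusted p = 2.6e-07). Glp2r was 2.69 lower (-2.69, SE 0.11, adjusted p = 4.5e-14). The scaling between populations moved every log2 difference by -0.13 relative to CPM. With only the Rxfp1-rich and Shox2-rich clusters as neurons, the differences were 5.52, 1.81, 2.32, 1.66 and -5.78 in the same order.

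The 4 receptors also gave UMIs outside neurons, and this level was compared with that of genes that define the neurons. The mean non-neuronal level of Sctr was 2.64% and 2.44% of its level in neurons. It was 16.8% and 14.7% for Cckar, 17.9% and 15.7% for Sstr2 and 15.4% and 9.85% for Glp1r. Among neuron genes it was 19.5% and 21.6% for Th, 24.8% and 23.8% for Dbh and 6.85% and 5.84% for Snap25. The non-neuronal levels of Cckar, Sstr2 and Glp1r thus lay within the range that neuron genes showed in the same suspensions, and Sctr lay below it. Whether these UMIs came from the cells or from free RNA was not tested.

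**Figure D4:**
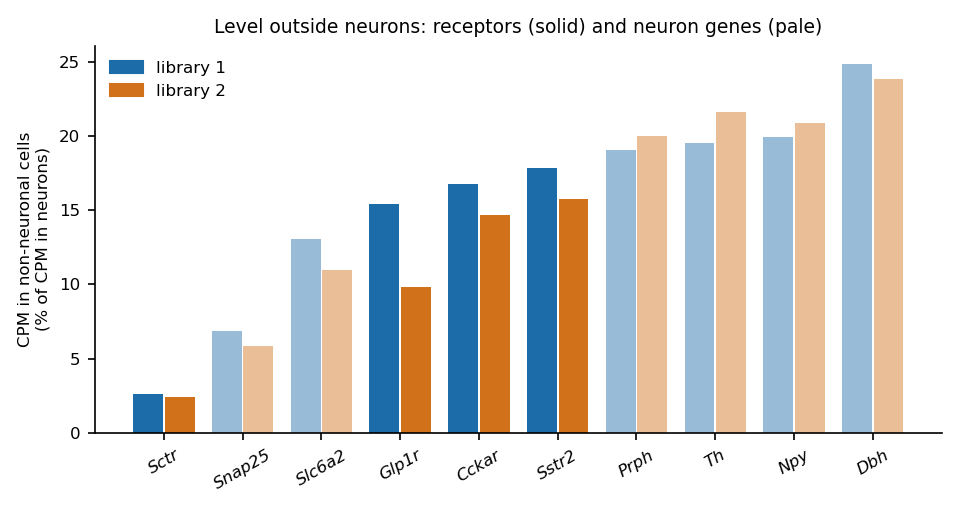
Level in all non-neuronal classes together as a percentage of the level in neurons, for 4 receptors (solid bars) and 6 neuron genes (pale bars), with 1 bar per library. Sctr has the lowest share (2.64% and 2.44%), and Cckar, Sstr2 and Glp1r lie between Snap25 and Dbh.

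Among the non-neuronal classes, each of 10 was compared with the other non-neuronal cells. The prior degrees of freedom were infinite for fibroblasts, mast cells, pericyte or smooth muscle cells and T cells, as between the neuron types. A gene's own spread between the libraries had no weight in those p-values, and little in dendritic cells (299 prior degrees of freedom). Of 51 pairs of receptor and class tested, 15 passed, and 9 of these were of Glp2r. In the classes and directions of these calls, the share of all genes called ran from 11.3% (lower in T cells) to 37.6% (higher in glia). The count of 15 is to be read against these shares. Pericyte or smooth muscle cells had 11.7 and 12.3 CPM of Sctr, which was 1.19 higher on the log2 scale (SE 0.27, adjusted p = 5.5e-05, where 20.7% of genes were higher). Glia had 8.22 and 5.70 CPM of Sctr, or 0.57 higher (SE 0.14, adjusted p = 7.3e-04, where 37.6% were higher), a call that DESeq2 did not make (adjusted p = 0.301). Sctr was lower in dendritic cells, at 2.65 and 2.46 CPM (-1.25, SE 0.47, adjusted p = 0.0137, where 33.2% were lower), and in perineurial or epineurial cells, at 4.14 and 4.75 CPM (-0.92, SE 0.33, adjusted p = 0.0236, where 27.5% were lower). DESeq2 made neither of these calls (adjusted p = 0.227 and 0.283). In the UMIs set aside for testing, perineurial or epineurial cells had 13 and 5 Sctr UMIs (3.99 and 1.90 CPM), and over all UMIs the difference was -0.33 and did not pass (adjusted p = 0.202). Cckar was 0.64 higher in pericyte or smooth muscle cells (14.5 and 11.6 CPM, SE 0.24, adjusted p = 0.0160), a call lost without the library block (adjusted p = 0.0510), with DESeq2 (0.382) and with doublets kept (0.729). Neuron genes moved in the same fits. In pericyte or smooth muscle cells Th (0.48), Dbh (0.42) and Shox2 (0.64) were also called higher, while Rxfp1 did not pass (0.52). In glia Th (0.28), Dbh (0.20) and Rxfp1 (0.36) were called higher, while Shox2 did not pass (0.12). Th (-0.20) and Dbh (-0.19) were called lower in perineurial or epineurial cells and did not pass in dendritic cells. The part of neuronal RNA in the Sctr and Cckar calls was not tested. For Sstr2 and Glp1r, no class passed by edgeR's quasi-likelihood test, with 0 classes under an unadjusted p of 0.05 for either gene and 0 passed by DESeq2. Under other settings of the same test, Sstr2 passed in myelinating Schwann cells with all UMIs (1.19, adjusted p = 0.0322) and in glia at lower clustering resolution (0.32, adjusted p = 0.0443), and Glp1r passed in fibroblasts with doublets kept (-0.80, adjusted p = 0.0336).

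Glp2r, the receptor for GLP-2, a peptide known for growth of the intestinal lining, had its highest level in glia. In non-myelinating glia, a class that pools cells with markers of satellite glia and of non-myelinating Schwann cells, it stood at 574 CPM (565 to 583) and 597 CPM (588 to 606). These cells held 71.2% and 70.3% of all Glp2r UMIs. A Glp2r UMI was seen in 91.1% of 4707 and 90.1% of 4471 glia (median 5390 and 5472 UMIs), against 23.0% and 26.3% of blood endothelial cells. Thinned to 1500 UMIs, which left out no cell of either class, the shares were 56.8% and 58.6% in glia and 6.09% and 5.61% in blood endothelial cells. The median glial cell held 3.0 UMIs in each library and the highest 17 and 19.

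The other classes fell in an order of Glp2r level. Perineurial or epineurial cells followed at 197 and 213 CPM. Fibroblasts (163 and 173), mast cells (162 and 167), myelinating Schwann cells (164 and 161) and lymphatic endothelial cells (149 and 119) came next. The ranges of the first 3 of these overlapped, and lymphatic endothelial cells lay just below them. Macrophages had 108 and 110 CPM and T cells 78.9 and 67.9. Dendritic cells (41.0 and 62.7), neurons (57.4 and 43.7), blood endothelial cells (38.3 and 45.0) and pericyte or smooth muscle cells (34.5 and 39.4) were lowest and overlapped from neighbour to neighbour.

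In the test of classes, Glp2r was 2.30 higher in glia than in the other non-neuronal cells (SE 0.03, adjusted p = 1.7e-26), where 37.6% of genes were higher. It was lower in 8 of the other 9 classes against their own rest, a rest that holds the glia. The differences ran from -2.93 in pericyte or smooth muscle cells, -2.84 in blood endothelial cells, -2.22 in T cells and -2.03 in dendritic cells to -1.24 in macrophages, -0.82 in myelinating Schwann cells, -0.68 in fibroblasts and -0.44 in perineurial or epineurial cells. The share of all genes lower in these classes was 26.4%, 32.5%, 11.3%, 33.2%, 33.9%, 15.4%, 33.8% and 27.5% in that order. Mast cells did not pass (-0.52, SE 0.25, adjusted p = 0.208), but did with all UMIs (-0.58, adjusted p = 0.0379). Scaling moved log2 differences relative to CPM by 0.45 in dendritic cells, 0.32 in macrophages, 0.26 in fibroblasts, 0.15 in blood endothelial cells, 0.13 in mast cells and -0.21 in T cells.

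Glp2r varied among the glial clusters as well. It stood at 505 and 541 CPM in cluster 0, 572 and 551 in cluster 1, 556 and 581 in cluster 13, 636 and 688 in cluster 4 and 729 and 725 in cluster 2. Clusters 1 and 13 overlapped, cluster 0 lay below them, and clusters 4 and 2 lay above without overlap. Among neurons, Glp2r stood at 514 and 470 CPM in neuron cluster 4, the one led by satellite glial genes, and at 171 and 114 CPM in neuron cluster 6. In neuron cluster 1 it stood at 5.25 and 7.11 CPM. The Glp2r level thus differed among neuron clusters more than between libraries, and of these 3 it was highest in neuron cluster 4. Whether its UMIs there came from glial RNA was not tested.

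Glp2r lies on chr11:67661502-67771153 on the minus strand and overlaps Gas7 on the plus strand over 27489 bases, 66 of them exonic in both, and Rcvrn over 8008 bases, none of them exonic in both. Counting by strand or in introns is not given in the sources that were used, and reads of these genes may not have been told apart. Gas7, a gene of the cytoskeleton, was 1.55 higher in glia than in the other non-neuronal cells (SE 0.03). Like Glp2r (-2.69), it was lower in neurons than in all other named cells (-2.88, SE 0.11). There were 1.33 and 1.31 Glp2r UMIs per Gas7 UMI in glia, 1.37 and 1.26 in neurons, and 1.48 and 1.37 in pericyte or smooth muscle cells. The ratio was lower in macrophages (0.592 and 0.538), blood endothelial cells (0.503 and 0.642) and dendritic cells (0.269 and 0.417). Over the 12 populations with at least 50 cells in each library, the log2 levels of the pair had r = 0.91 and 0.94, and Gas7 ranked 3 among 16926 genes by its likeness to Glp2r. The populations share libraries and depth, and this is a description. What part of the Glp2r counts comes from Gas7 was not tested.

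**Figure D5:**
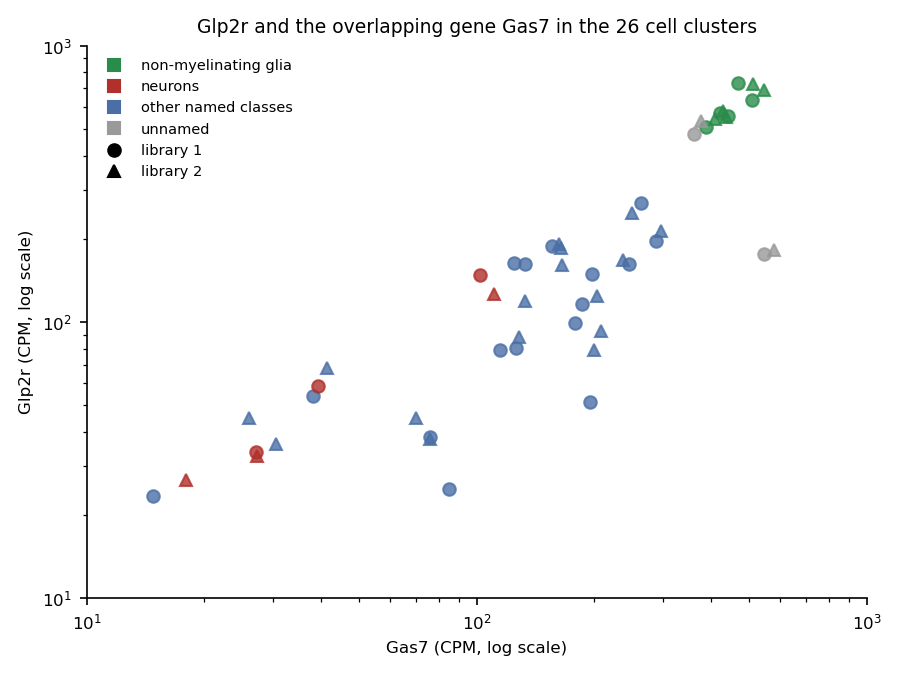
Level of Glp2r against that of Gas7, a gene that overlaps it on the other strand, in the 26 cell clusters, both in CPM on log axes, with circles for library 1 and triangles for library 2 and colours for glia, neurons, other named classes and unnamed clusters. The levels follow each other over the clusters (r = 0.85 and 0.90).

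Sstr2 (chr11:113619342-113626028, plus strand) lies within Slc39a11 on the minus strand, over 6687 bases with no exonic base in both. Slc39a11, a zinc transporter gene, was also lower in Rxfp1-rich than in Shox2-rich neurons (-1.53, SE 0.22, adjusted p = 6.9e-11, edgeR). Like Sstr2 (2.44), it was higher in neurons than in all other named cells (1.92, SE 0.10). Over all UMIs, Slc39a11 had 80 and 61 in the Rxfp1-rich cluster and 176 and 217 in the Shox2-rich cluster. The part of Slc39a11 reads in the Sstr2 counts was not tested. Glp1r (chr17:30901817-30940791, plus strand) overlaps 2 antisense genes that are not listed in the count tables. Cckar lies on chr5:53697776-53707705 on the minus strand and, like Sctr, overlaps no other gene in the annotation.

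Sstr1, another inhibitory somatostatin receptor, was judged in blood endothelial cells alone. It had 17 and 15 UMIs in blood endothelial cells, or 2.09 CPM (1.21 to 3.34) and 1.91 CPM (1.07 to 3.15). The rest of the non-neuronal cells had 2 and 1 UMIs. The ratio over both libraries was 96.8, with a counting interval of 30.3 to 494 (75.8 in library 1 and 139 in library 2 alone), and 89.5% and 93.8% of Sstr1 UMIs were in blood endothelial cells. Its log2 difference was 6.80 (SE 1.05, adjusted p = 4.0e-06, edgeR's quasi-likelihood test), where 29.0% of genes were higher. In the UMIs set aside for testing, this was the 1 class of 10 in which Sstr1 was tested. It got through the low-count filter by its UMIs there alone (8 and 8, against 1 and 0 in the rest), so the p-value is no separate support. The 17 and 15 UMIs were spread over 15 of 986 and 14 of 892 blood endothelial cells, or 1.52% and 1.57%. No UMI was seen in 872 and 808 neurons, which allows a share of cells with a UMI of up to 0.344% and 0.371%, or in 4707 and 4471 glia, which allows up to 0.0637% and 0.0671%. These limits apply to cells with a UMI at this depth, not to cells that express the gene. Sstr1 lies on chr12:58211772-58214444 on the plus strand.

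Cckbr, Gipr and Ghsr could not be placed. Cckbr, the receptor for gastrin and cholecystokinin, had 8 and 12 UMIs in all barcodes, never more than 1 in a cell, with 0 in neurons and 1 and 8 in glia. Gipr had 12 and 9 UMIs in all, of which 3 and 2 were in neurons and 8 and 6 in non-neuronal classes, and the ratio of neurons to the rest over both libraries was 4.69 (1.32 to 13.8). Ghsr had 1 UMI in library 1, in a glial cell, and none in library 2. These counts give no level for any class.

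The hormones themselves were sparse. Sct, which encodes secretin, had 34 UMIs in dendritic cells of each library (7.50 and 6.42 CPM) and 4 and 6 in neurons. Cck had 27 and 29 UMIs in pericyte or smooth muscle cells (6.75 and 7.28 CPM) and 28 and 30 over all non-neuronal classes. Neurons held 25 and 21 UMIs of Sst (3.87 and 3.61 CPM) and 21 and 12 of Gast (3.25 and 2.07 CPM). Gcg, which encodes both GLP-1 and GLP-2, had 28 and 22 UMIs in fibroblasts. Dpp4, an enzyme that cleaves GLP-1 and other gut peptides, stood at 120 and 134 CPM in dendritic cells. Of 19 ligand and breakdown genes, 7 were tested between neurons and other cells, and 3 were higher, 3 lower and 1 did not pass (median 0.38, against -0.10 for all genes). Of all genes in that comparison, 32.5% were higher and 38.0% lower, and the counts of this and the next lists are to be read against these shares. Sst (2.45), Gal (2.41) and Gast (1.81) were higher in neurons, Dpp4 (-3.57) was among those lower, and Sct did not pass (0.38).

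Related receptors of the gut and brain were counted in the same comparison. Of 41 listed, 16 were tested between neurons and other cells, and 4 were higher, 8 lower and 4 did not pass (median -0.46, against -0.10 for all genes, of which 32.5% were higher and 38.0% lower). Rxfp1, the relaxin receptor, was 4.59 higher, and Hcrtr1 (2.65), Adcyap1r1 (2.30) and Npy4r (2.07), receptors of orexin, PACAP and pancreatic polypeptide, were also higher. Calcrl (-3.95), Lepr (-3.57) and Vipr2 (-2.54), receptors of the CGRP family, leptin and VIP, were lower. Between the neuron types, 5 of these receptors were tested, and Rxfp1 alone passed (2.32), a gene used to name the clusters.

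Of 11 partners of the receptors, 3 were higher in neurons, 6 lower and 2 did not pass (median -0.42, against -0.10 for all genes, of which 32.5% were higher and 38.0% lower). Mrap2, which binds Ghsr and melanocortin receptors, was 2.95 higher and the receptor kinase Grk3 2.45 higher. Ramp1, which pairs with class B receptors, was 0.91 higher (adjusted p = 9.8e-09, edgeR), while its relatives Ramp3 (-4.66) and Ramp2 (-2.80) were lower. Of 44 G proteins and effectors, 42 were tested, and 21 were higher, 15 lower and 6 did not pass (median 0.23), against the same shares of all genes. The potassium channel subunit Kcnj3 (5.95) and the adenylyl cyclases Adcy8 (5.85) and Adcy1 (4.20) were higher in neurons, while Adcy4 (-4.26), the cyclic AMP sensor Rapgef3 (-3.84) and the phospholipase Plcb1 (-3.24) were lower.

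Between the neuron types, 31 effectors were tested, and 4 were higher in Rxfp1-rich neurons, 3 lower and 24 did not pass (median -0.02, against -0.01 for all genes, of which 6.17% were higher and 4.7% lower). Plcb4 (1.85) and Kcnj3 (1.31), through which Gq and inhibitory G proteins act, were higher along with the phosphodiesterases Pde4b and Pde4d (0.44). Adcy5 (-4.87), Adcy8 (-1.23) and Adcy2 (-0.87) were lower.

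The genes most like each receptor over the same 12 populations, by the mean Pearson r of log2(CPM + 1) in the 2 libraries, differed by receptor. Like Sctr were B020031H02Rik (r = 0.91), Oprd1 (0.91), Ltk (0.90), Hmx1 (0.895) and Tspan8 (0.87). Like Cckar were Lrp1b (0.92), Sstr2 (0.92), Pde11a (0.91), Shox2 (0.90) and Csmd3 (0.90). Sstr2 had Cckar (0.92), Shox2 (0.91) and Csmd3 (0.89) first, then Lrp1b (0.88) and Kcna4 (0.85). Glp1r had Cntn2, Trpc5 and Slc3a1 (0.93 each), Gm14004 and Fbxo21. Glp2r had Uqcc2 (0.93), Pdlim4 (0.93), Gas7 (0.93), Commd6 (0.92) and Sdc4 (0.92). Sstr1 had Lhx6 and Irx5 (0.99 each), Wfdc2, Gm39465 and Upp1. The order for Sstr1 and Glp1r rests on few UMIs, and the 2 neuron types set much of the profile of the neuronal receptors. Shox2 was used to name these types, and Csmd3 and Lrp1b were among the leading genes of the Shox2-rich cluster. Their likeness to Cckar and Sstr2 is therefore partly built in.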

How the data were processed

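The deposited files hold raw counts, that is, UMIs per gene and cell barcode for each library, without normalization, made by the authors with Cell Ranger 6.1.2 and the mouse build mm10, per the submitters' processing notes. Their gene annotation and cell filters are not named in the sources used here. Cells were required to have 500 genes, 1000 UMIs and a mitochondrial share under 20%, which removed 1 barcode. Scrublet in scanpy 1.11.5 marked 564 cells (4.48%) of library 1 and 624 (5.08%) of library 2 as doublets, and these were removed.

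The UMIs of each cell were divided at random into equal expected shares (probability 0.5). One share served for clustering, on log counts scaled to 10000 per cell (15 neighbours on 30 components of 3000 variable genes, leidenalg 0.10.2 at resolution 1, or 0.8 within neurons), without the 9 receptors. It gave 26 clusters. A cluster was named if at least 3 markers of a class were at least 2-fold higher there and its leading genes were not those of another class, and clusters 21 and 23 stayed unnamed. The naming rule and the pooling of satellite glia with non-myelinating Schwann cells were chosen after the data were seen. The receptors and gene lists were chosen with earlier results of these data known.

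The other share was summed per library and population, giving 4 sums per comparison, and tested with edgeR 4.0.16 in R 4.3.3 (filterByExpr, TMM scaling, quasi-likelihood test, library as a block). Benjamini-Hochberg adjustment ran over all genes of a comparison, with a threshold of 0.05. Classes with fewer than 50 cells in a library, namely lymphatic endothelial cells, were not tested. The library number pairs populations because both come from the same suspension. The scripts were tested on simulated data. Levels, intervals and shares use all UMIs and carry no test. The depth of each population sets the precision, and the Poisson and binomial intervals state it. A share of 0 cells was given the limit of 3 counts, which bounds cells with a UMI, not cells that express the gene. Text names the 9 receptors, genes of 4 lists past the threshold with the largest folds, and the hormones of the receptors except Gip and Ghrl. Also named are the 5 genes of most similar profile among those with at least 50 UMIs in each library. Alternatives were all UMIs, DESeq2 1.42.0, no low-count filter, no block, doublets kept, resolution 0.5, other definitions of neurons and other UMI minimums. Gene coordinates are those of GENCODE M21 on GRCm38, the assembly named mm10 by the submitters. Other software was pandas 2.3.3, scipy 1.17.1, numpy 2.4.6 and matplotlib 3.10.9 under Python 3.11.15.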

Additional observations from a re-analysis of the deposited data

Results flagged for a closer look

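Receptor UMIs were found in cells that entered no comparison. Lymphatic endothelial cells, with 32 and 28 cells too few to be tested, had a mean Glp1r level of 33.8 CPM, from 5 and 11 UMIs, or 17.3 CPM (interval 5.63 to 40.5) and 50.3 CPM (25.1 to 90.0). Blood endothelial cells had 13 and 11 Glp1r UMIs, at 1.59 and 1.40 CPM, and the ratio of the 2 endothelial classes over both libraries was 21.0 (10.4 to 41.3), or 10.9 in library 1 and 35.9 in library 2 alone. The Glp1r level of lymphatic endothelial cells lay above that of neurons (10.4 and 15.1 CPM) in both libraries, though the 5 UMIs of library 1 are under the minimum for judging. Their mean Glp2r level was 134 CPM.

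Of the unnamed clusters, cluster 23 had non-myelinating Schwann markers as its best list but was led by neuron genes such as Slc6a2. Its mean levels were 12.3 CPM of Sctr, 54.9 CPM of Cckar, 25.7 CPM of Sstr2 and 506 CPM of Glp2r. Cluster 21, led by the macrophage genes Folr2, Cd209f and Lyve1, had means of 12.4 CPM of Cckar, 7.68 CPM of Sstr2 and 179 CPM of Glp2r.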

How the results depend on the processing

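The 5 calls between neurons and other cells numbered 5 or 6 under every alternative tried, also with neurons under 5000 UMIs alone, an alternative chosen after seeing the data. The sixth was Gipr with all UMIs (2.04, adjusted p = 0.0270, edgeR). The 3 calls between neuron types numbered 3 or 4, the fourth being Glp2r with doublets kept (-1.54, adjusted p = 0.0393). The 15 calls among classes ranged from 11 with DESeq2 to 22 with all UMIs. The 3 receptors too low to judge became 4 with a minimum of 20 UMIs, which added Sstr1, and stayed 3 without replicate 1 or 2. Without the replicate block, the calls numbered 5, 3 and 14, and the pairing changed no call but that of Cckar in pericyte or smooth muscle cells. Of 152 alternative values of passed calls, 144 kept direction and call, 8 lost the call and 0 reversed. The losses, besides those given above, were Sctr in perineurial or epineurial cells with all UMIs (-0.33, adjusted p = 0.202) and with doublets kept (-0.47, adjusted p = 0.196).

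Of 215 alternative values that had not passed, 14 passed and 20 reversed, none of the 20 past the threshold in either fit, and the cause was not tested. With all UMIs these passed: Cckar in dendritic cells (0.44), macrophages (0.36), myelinating Schwann cells (0.89) and glia (0.18), Sstr2 in myelinating Schwann cells (1.19), Sctr in fibroblasts (-0.36) and Glp2r in mast cells (-0.58). With doublets kept, Sctr (-0.54), Cckar (-0.47) and Glp1r (-0.80) passed in fibroblasts. At lower resolution Cckar passed in macrophages (0.40), Sctr in myelinating Schwann cells (1.53) and Sstr2 in glia (0.32), and with no filter Sctr in myelinating Schwann cells (1.42). Of the reversals, those in blood endothelial cells were Sctr (0.051) and Cckar (-0.10) with doublets kept, Glp1r with all UMIs (0.12), and Sstr2 with DESeq2 (-0.0015), no low-count filter (-0.054) and lower resolution (-0.012). In perineurial or epineurial cells they were Cckar with DESeq2 (-0.0078), no filter (-0.024), doublets kept (-0.12) and lower resolution (-0.0093), and Sstr2 with DESeq2 (-0.022), no filter (-0.026) and lower resolution (-0.018). With doublets kept, Cckar (-0.058) and Glp1r (-0.058) reversed in glia, Sstr2 in macrophages (-0.30) and Cckar (-0.67) and Sstr2 (-0.85) in mast cells. Sstr2 in mast cells also reversed with all UMIs (-0.59), and Glp1r in myelinating Schwann cells with lower resolution (-0.41).

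Keeping doublets gave 447 and 426 neurons in place of 872 and 808, so the neuron class depends on that choice. With doublets kept, a cluster of 440 and 419 cells led by Hbb-bs was named erythroid, although it had 13 neuron markers among its 100 leading genes and Slc6a2 and Syt4 among the first 10. Slc6a2 and Syt4 also led cluster 11 (427 and 394 cells), which was named neuronal without doublets. Levels under 10 UMIs in a library are limited by depth.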
